A study of Arabidopsis thaliana with 8 samples.

Results

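The 320 peaks described here are every row of the peak list for GBF2 in mock-treated Arabidopsis thaliana seedlings, out of 1589 rows in the 3 deposited lists of the study. They were chosen by treatment alone and not by any measured value. GBF2 was captured by chromatin immunoprecipitation and sequencing with an antibody against GFP, from whole Col-0 seedlings carrying pGBF2:GBF2-Ypet, in which the GBF2 promoter drives GBF2 joined to the fluorescent protein Ypet. Seedlings 5 days old, grown under 16 h light and 8 h dark with 1% sucrose, spent 6 h in liquid medium with the solvent DMSO alone. The mock group comprised 2 libraries of immunoprecipitated chromatin and 2 input libraries made without antibody. A parallel set of 2 and 2 libraries came from seedlings given 0.5 µg/mL tunicamycin, a blocker of N-glycosylation, and its list of 767 peaks serves only as background below. All groups carried the transgene, the labels do not say whether the native GBF2 gene was intact, and no line without the tag was among the groups analysed. The whole seedling was sampled, so the tissue in which a site was bound cannot be told apart.

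GBF2 belongs to the G-box binding factors, a small family of bZIP proteins that pair with each other through a leucine zipper and contact the G-box, a short palindromic element of many plant promoters. G-boxes occur in genes that respond to light, the circadian clock and abscisic acid, and other bZIP and bHLH factors bind the same element. A ChIP peak marks DNA that came down with the tagged protein. It shows neither direct contact nor an effect on the gene.

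The authors gave each peak a score, a width, a position class and 1 gene. The score is compared only among peaks of this list. Its scale is not stated, so the size of a gap between scores has no known meaning. The lists analysed give no value per library, so depth, the spread between replicates and the error of a single score are unknown here, and no peak or group of peaks was tested. Beside shares stand 95% Wilson intervals, which reflect counting error alone and treat peaks as independent. The 320 peaks were assigned to 292 genes, of which 274 had 1 peak and 18 had 2 or more. Of the 27444 protein-coding nuclear genes in the reference table, 233 had a peak, or 0.849%.

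High scores were few. The scores ran from 1.71 to 8.75 with a median of 2.96, and the middle 50% lay between 2.69 and 3.40. Only 40 peaks (12.5%) scored 4 or more, 16 scored 5 or more, and 5 scored 7 or more. The widest step in score came after rank 5, from 7.78 to 6.29, though on this unstated scale its size has no known meaning.

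**Figure D1:**
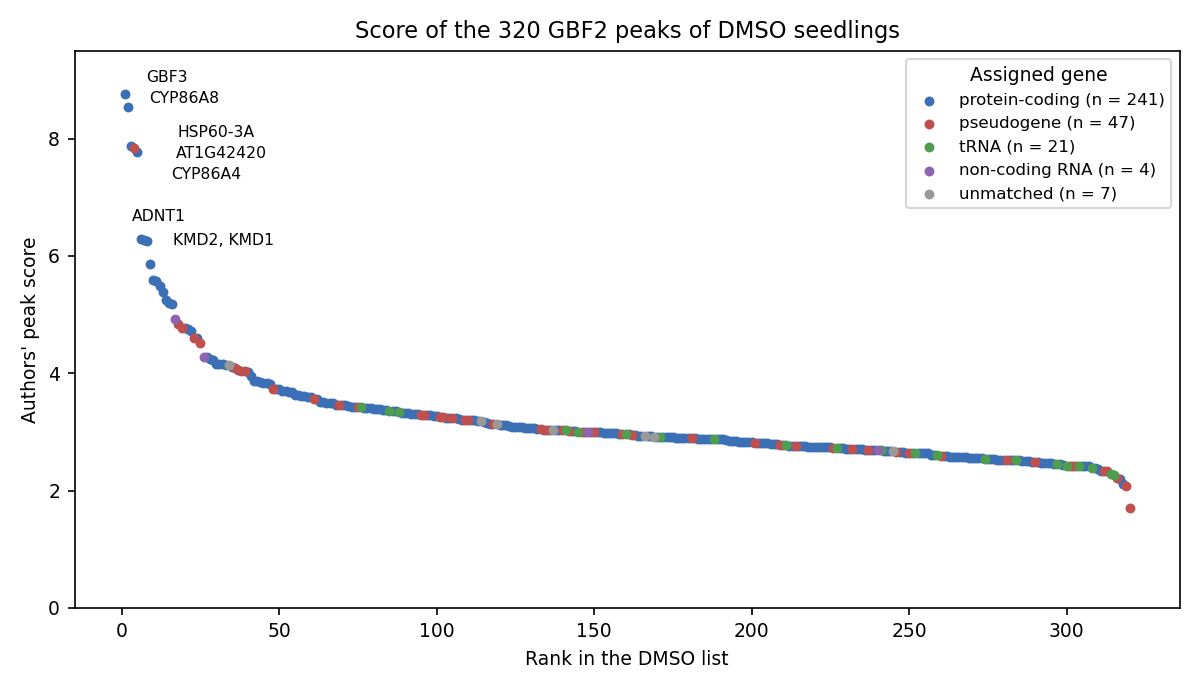
Authors' score of each of the 320 DMSO peaks (vertical axis, no unit) against its rank in the list (horizontal axis), with 1 point per peak coloured by the kind of gene assigned and the 8 strongest named. The 5 strongest peaks sit between 7.78 and 8.75, and beyond rank 100 every peak lies at 3.27 or lower.

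The strongest peak of unstressed seedlings belonged to the gene of another G-box binding factor, GBF3 (AT2G46270). It covered 2670 bp of chromosome 2, from 18998302 to 19000971 (TAIR10 coordinates throughout), in the promoter class nearest the gene start (up to 1 kb, called the 1 kb promoter class below), with a score of 8.75. GBF1 (AT4G36730), a further G-box binding factor, had a peak of 1114 bp in the same class with a score of 3.08 at rank 127. No DMSO peak was assigned to GBF2 itself. The wide DMSO peak assigned to ADNT1, described further below, covers nearly all of the peak that the tunicamycin list assigns to GBF2, so the missing assignment does not show that the GBF2 locus was free of signal. With bZIP68, bZIP16, HYH and HY5 also without an assigned peak, 2 of the 7 listed G-box bZIP factors had one.

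The CYP86A cytochromes P450 hydroxylate fatty acids at the omega position for cutin and suberin, and 4 of the 5 genes of this family were bound. CYP86A8 (LACERATA, AT2G45970) scored 8.54 at rank 2, on chromosome 2 from 18911929 to 18914299 in the 5′ UTR class. CYP86A4 (AT1G01600) scored 7.78 at rank 5, on chromosome 1 from 219453 to 221050 in the 3′ UTR class. CYP86A2 scored 5.57 and CYP86A7 scored 5.49, at ranks 11 and 12 and both in the 1 kb promoter class. All 4 therefore stood among the 12 strongest peaks, and CYP86A1 had none. In the cutin and wax list, 1 of 24 matched genes was bound, and that gene was CYP86A8 again. Since only 0.849% of all protein-coding genes were bound, the lack of a peak at the others is no result about them. GPAT4, an acyltransferase of cutin synthesis, had no peak of its own but neighbours CYP86A4 in the gene order, and LACS1, a long-chain acyl-CoA synthetase, neighbours the bound gene AT2G47230.

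The KISS ME DEADLY genes encode Kelch-repeat F-box proteins that mark type-B response regulators of cytokinin signalling for breakdown. KMD2 (AT1G15670) scored 6.27 and KMD1 (AT1G80440) scored 6.25, and both peaks were in the 5′ UTR class. The other members of this list of 4 had no peak. HSP60-3A (AT3G13860), a mitochondrial chaperonin, scored 7.88 at rank 3, on chromosome 3 from 4566249 to 4569268. A second heat shock gene, HSP101, encoding a protein disaggregase, was bound near the foot of the list with a score of 2.44 at rank 298. The list of HSP60, HSP70 and HSP100 genes held 2 bound members of 12.

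Iron homeostasis genes formed a further group with several strong sites. FRO2, the ferric chelate reductase of the root surface, scored 5.38 at rank 13. OPT3, an oligopeptide transporter family member that moves iron in the phloem, scored 4.77 at rank 20. The ferritin gene FER1 scored 3.70, the mitochondrial ferric reductase gene FRO3 scored 3.19, and PYE, a bHLH factor of the iron deficiency response, scored 2.89. These 5 were all in the 1 kb promoter class, and 22 of the 27 genes of the list had no peak. FRO2 and CYP86A4 lie close together on chromosome 1, with 10744 bp between their peaks.

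Clock genes were bound across a wide range of scores. PRR7, a pseudo-response regulator that represses morning genes, scored 5.18 at rank 16. Its relatives PRR3, TOC1 and PRR5 scored 2.90, 2.49 and 2.47. These were 4 of 14 clock genes, all in the 1 kb promoter class. Outside the list, and named because it had 2 peaks, TIC (TIME FOR COFFEE) encodes a nuclear protein needed for a normal clock. Its peaks scored 4.15 and 2.88. The MYB-like factors RVE1 and RVE2, picked after their values were seen, scored 2.74 and 2.65. They make 2 of 5 genes with REVEILLE names, a share that is no independent evidence because the group was picked in the same way. BBX28, a B-box protein of light signalling, scored 4.23 at rank 29 and was the bound member among 15 B-box genes. The 21 genes of phytochrome and light signalling had no peak.

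The endoplasmic reticulum (ER) was represented in these seedlings, which were given no tunicamycin. Of 23 ER chaperones and folding enzymes, 4 were bound, all in the 1 kb promoter class. The calreticulin genes CRT1a and CRT1b, whose products bind calcium and unfinished glycoproteins, scored 4.24 and 3.83. SHD (SHEPHERD), the HSP90 of the ER, scored 3.28, and P58IPK, a J-domain co-chaperone, scored 2.88. SAR1B, a small GTPase that starts COPII vesicles, scored 3.29 and lies next to CRT1a in the gene order. It was the bound member of 12 genes for ER-associated degradation and transport. The 12 genes for ER stress sensors and their transcription factors had no peak. Other bound genes of the secretory route were picked after their values were seen. They were RHD3, which shapes the ER network (3.46), ERD2, a receptor that retrieves ER proteins (2.71), and the Rab GTPase gene RAB1A (2.74).

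Across all 25 lists, 33 of 352 matched genes had a peak (9.38%), and 9 lists had no bound member. The lists were drawn up with results of these data known, so this share is no independent evidence that the lists stand apart from the 0.849% of all protein-coding genes. With only the strongest 50% of peaks, 23 members remained against a background of 0.419%, and with only the 1 kb promoter class, 28 remained against 0.663%. The empty lists included the 23 abscisic acid genes, the 14 genes for sugar starvation and for amino acid breakdown, the 13 stress NAC factors and the 7 flavonoid genes. With only 0.849% of all protein-coding genes bound, a list without a peak, here or above, is no result about its members. Genes tied to abscisic acid but outside that list did have peaks. TMAC2 (AFP4), named as a binding protein of the list member ABI5, scored 3.20 at rank 112. ABCG25, an exporter of abscisic acid, scored 3.09. Both were picked after their values were seen. Some lists had a single bound member. It was ERD10, a dehydrin (score 3.11), among 12 dehydrin and cold response genes, and LHCB6, an antenna protein of photosystem II (3.31), among 17 photosynthesis genes. It was CAT2, a peroxisomal catalase (2.85), among 10 catalase and antioxidant genes. Among 21 ethylene genes it was ERF4, a repressor of the ethylene response (2.68), with a peak in the distal intergenic class. The auxin list of 22 genes had YUC9 (2.97) and YUC8 (2.54) bound, flavin monooxygenases that make the hormone. Bound auxin genes outside it included BRU6 (2.89) and WES1 (2.52), of the GH3 enzymes, picked after their values were seen.

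**Figure D2:**
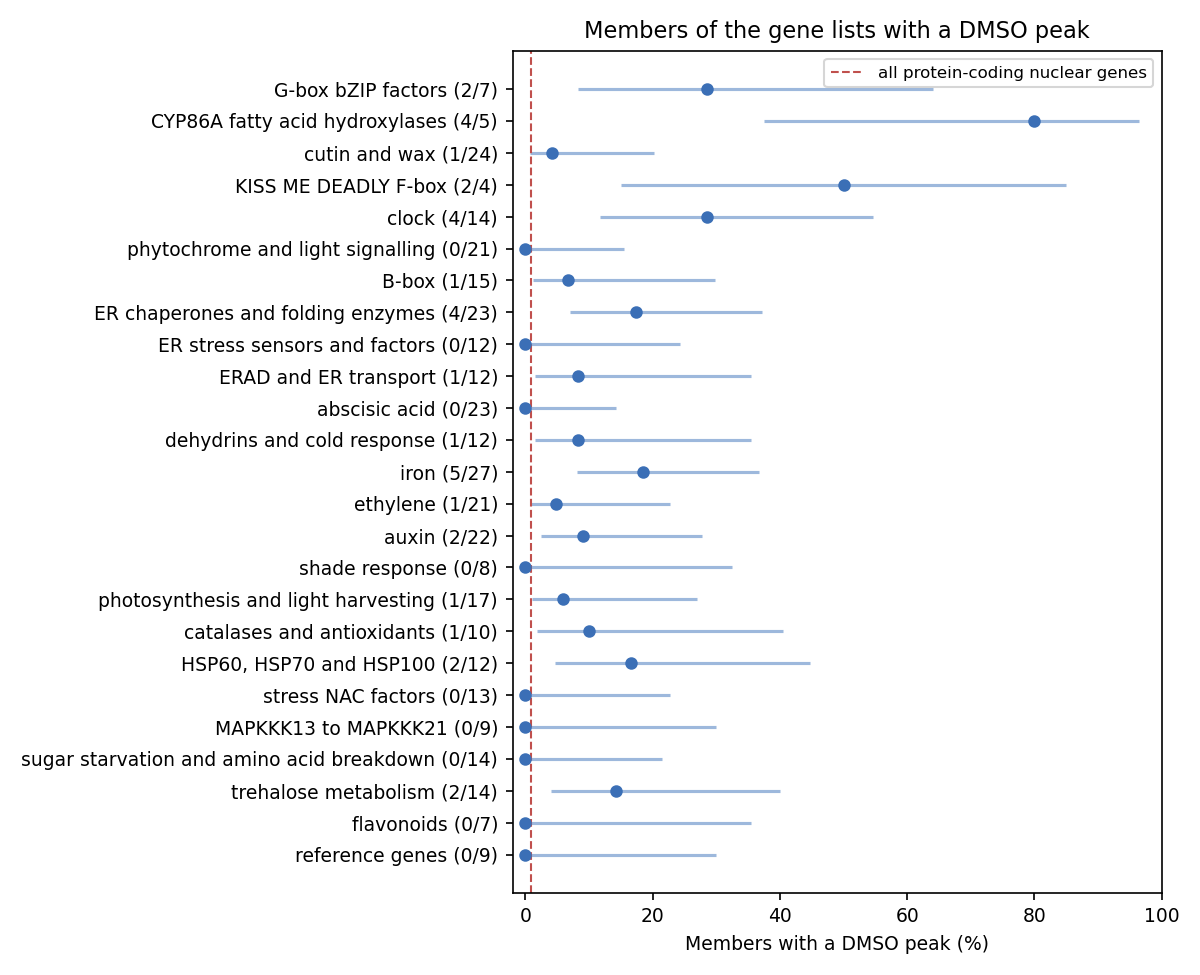
Share of the matched members of each of 25 gene lists that had a DMSO peak (horizontal axis, %), with 1 list per line, the bound and matched counts in brackets and 95% Wilson intervals as bars; the dashed line is the 0.849% of all protein-coding nuclear genes. CYP86A leads with 4 of 5 genes, and 9 lists sit at 0.

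Selected genes, from the lists and from outside them, were sorted by role after their values were seen. The roles are not complete classes, and the following describes only the genes selected. The 22 transcriptional regulators selected had scores from 2.47 to 8.75 with a median of 2.89, and GBF3, PRR7 and BBX28 led them. Among those outside the lists, GT2, a trihelix factor, scored 3.45, TCP4, a regulator of leaf growth, 3.35, MYBR1 (MYB44) 3.01, WRKY28 2.92, ERF15 2.84, the NAC factor gene NAC2 2.84, NF-YA1 2.82 and the co-repressor gene TPL 2.76. The selected regulators thus span the list from its top to near its foot, with PRR5 at rank 292.

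The sugar genes selected were led by GolS2, a galactinol synthase that starts raffinose synthesis, with a score of 4.05, and TPS11, of the trehalose phosphate synthase family, with 4.03. The sugar transporter gene SAG29 scored 3.06, the plastid amylase gene AMY3 2.96 and TPPA, a trehalose phosphate phosphatase, 2.74. All 5 were in the 1 kb promoter class. Trehalose genes were 2 of 14 in their list.

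Aquaporins, the water channels of the plasma membrane and vacuole, were another family picked after its values were seen. PIP2A scored 3.62, RD28 3.03, PIP3 2.89, GAMMA-TIP 2.75 and PIP1;4 2.69, which are 5 of 37 genes with such names (13.5%). Of these 5, 2 were in the 1 kb promoter class, while PIP2A, PIP3 and PIP1;4 were in the class of 1 to 2 kb. PIP3 and CAT2 lie together on chromosome 4, where both peaks fit within 2744 bp. HAOX2, a peroxisomal hydroxy-acid oxidase, scored 3.60, and the gene of the peroxisomal protease LON2 scored 2.87. Genes of the ABC transporters, a much larger family, were bound in 3 of 127 cases (2.36%), among them ABCG25, an exporter of abscisic acid, at 3.09. The genes and families of this paragraph were chosen after their values were seen, CAT2 apart. Their shares are therefore no independent evidence that they stand apart from the 0.849% of all protein-coding genes.

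Several bound genes act in the chloroplast, and those outside the lists were picked after their values were seen. Among them were LHCB6 (3.31), the photosystem II genes PSBQ-2 (2.76) and PSBR (2.69), the plastocyanin gene DRT112 (2.91), CH1, the chlorophyllide a oxygenase that makes chlorophyll b (2.87), and HEME2, a uroporphyrinogen decarboxylase (3.14). DGD1, the synthase of digalactosyl lipids of plastid membranes, scored 3.35. LYK4, a LysM receptor-like kinase of chitin sensing, scored 4.73 at rank 22 in the distal intergenic class. BRI1, the brassinosteroid receptor, scored 2.97.

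**Figure D3:**
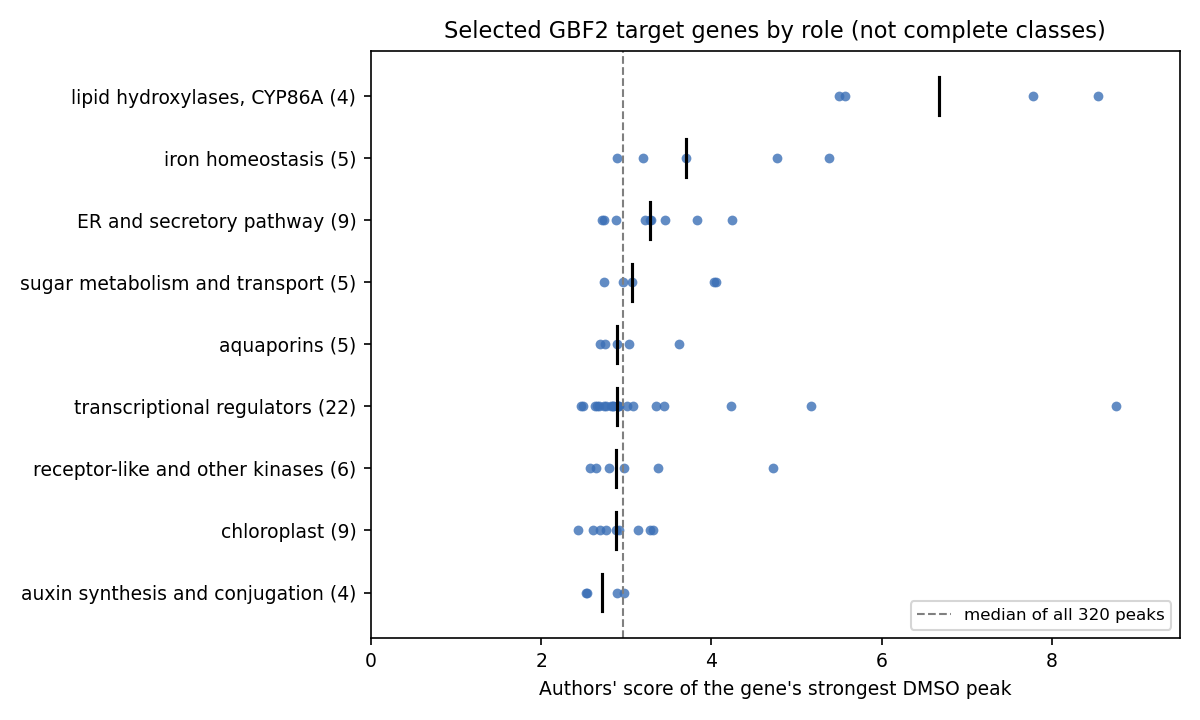
Authors' score of the strongest DMSO peak of each selected gene (horizontal axis, no unit), with 1 point per gene in 9 roles assigned after the values were seen and not complete as classes; short bars are group medians and the dashed line is the median of all 320 peaks, 2.96. PYE is drawn in both roles it holds. The 4 CYP86A genes lie at 5.49 or above.

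The remaining strong sites belong to no list. ADNT1, a mitochondrial adenine nucleotide transporter, scored 6.29 at rank 6, AT3G03790 scored 5.86, and F8H, a homologue of a glycosyltransferase of xylan synthesis, scored 5.58 in the 3′ UTR class. AT1G02660 scored 5.25, and DAD1, the phospholipase that releases fatty acid for jasmonate, scored 5.21. The 30 strongest peaks were assigned to 23 protein-coding genes, 5 pseudogenes and 2 non-coding RNA genes. The pseudogene AT1G42420 was the strongest of the latter kinds, with 7.85 at rank 4, on chromosome 1 from 15880002 to 15881607. At the foot of the list stood AT5G50230 (2.11), the pseudogene AT3G29640 (2.07) and the pseudogene AT3G33084 (1.71).

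Most peaks were classed near a gene start. By the authors' classes, 221 of 320 peaks were in the 1 kb promoter class, or 69.1% (63.8 to 73.9%). The promoter classes of 1 to 2 kb and 2 to 3 kb held 21 and 11 peaks, and the distal intergenic class held 36 (11.3%). The exon class held 12 peaks, the 3′ UTR class 11, the 5′ UTR class 4, and the intron and downstream classes 2 each. Among the strongest 50% of peaks the share in the 1 kb promoter class was 62.5%. How much of the genome falls in each class was not computed. These shares therefore do not show that GBF2 prefers promoters.

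Position and score went together only in part. The 1 kb promoter class had a median score of 2.91 and held 19 of the 30 strongest peaks, while the distal intergenic class had a median of 3.03. The 4 peaks of the 5′ UTR class had a median of 6.26: they were CYP86A8, KMD2, KMD1 and RHD3, and 3 of them were among the 30 strongest. The 11 peaks of the 3′ UTR class had a median of 3.24 and included CYP86A4 and F8H. These classes are small, the class of a wide peak depends on a rule not given in the sources used here, and the differences were not tested.

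Class, width and spacing of the peaks varied with the kind of gene. Protein-coding genes took 241 peaks (75.3%), and 183 of these (75.9%) were in the 1 kb promoter class. Pseudogenes were assigned 47 peaks (14.7%) over 27 genes, 0.558% of the 4843 pseudogenes in the table. Of the 47, 10 were in that promoter class and 21 (44.7%) in the distal intergenic class. A peak assigned to a pseudogene therefore need not lie in it. Pseudogene peaks were also narrow, with a median width of 446 bp against 901 bp for protein-coding genes. Median scores were 3.02 and 2.96.

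Some peaks came in groups. Another peak lay within 10 kb for 39 of the 47 pseudogene peaks (83.0%), against 30 of the 241 protein-coding peaks (12.4%). On chromosome 3, 5 peaks assigned to AT3G33000, AT3G33002 and AT3G33004 lay between 13537289 and 13541623. A further 4 peaks assigned to AT3G33084 and AT3G33076 lay between 13707810 and 13710395. On chromosome 4, AT4G06708 and AT4G06710 had 3 peaks each between 3966675 and 3987941. The largest group, of 10 peaks, was mostly not assigned to pseudogenes. It spanned 21926 bp of chromosome 2 from 3605856 to 3627781. In this group, 8 peaks are among the 30 protein-coding ones just counted, while 2 were assigned to a pseudogene. The protein-coding gene AT2G08986 took 7 of the 8, with scores from 2.89 to 3.73. Counted as sites with a gap of at most 10 kb, the 320 peaks come to 276 sites, 26 of which hold several peaks, and 74.6% of the sites had their strongest peak in the 1 kb promoter class. Read mapping in repeated sequence was not examined, and its part in these groups was not tested.

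Some strong sites had weaker neighbours. HSP60-3A shared a stretch of 10111 bp with RHD3 (3.46) and AT3G13857 (2.42). GBF3 lay within 10 kb of AT2G46290 (2.89), CYP86A8 of SK20 (2.51), CRT1a of SAR1B, and KMD2 of the tRNA gene AT1G15650 (2.39). Among the 23 protein-coding peaks of the 30 strongest, these 5 had such a neighbour (21.7%, 9.66 to 41.9%), and among the other 218 protein-coding peaks 25 did (11.5%, 7.89 to 16.4%). The intervals overlap, and the difference was not tested.

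Transfer RNA genes had 21 peaks, each on its own gene, which is 3.36% of the 625 tRNA genes in the table. All 21 were in the 1 kb promoter class, and their scores were low, with a median of 2.68 and a maximum of 3.42. Leucine tRNA genes made up 8 of the 21, out of 40 in the table. Alanine, methionine and serine tRNA genes had 2 each. Several other families had none, the 30 lysine and 26 aspartate tRNA genes among them. At 3.36% of all tRNA genes, families of this size can be without a peak and not stand apart. Copies of a tRNA can be near-identical, so the copy that reads came from is uncertain.

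Most peaks were somewhat under or over 1 kb wide. The median was 884 bp, the middle 50% lay between 788 and 1156 bp, and the extremes were 312 and 14031 bp. Score and width rose together, with a Spearman correlation of 0.408 and a Pearson correlation of 0.394 over 320 peaks, given as a description because both values come from the same reads. Within the 1 kb promoter class the Spearman value was 0.513 over 221 peaks, and among pseudogenes it was 0.260 over 47. Of the 34 peaks under 500 bp, 26 were assigned to pseudogenes and 8 to protein-coding genes. Of the 19 peaks of 2000 bp or more, 13 were among the 30 strongest, GBF3, CYP86A8, HSP60-3A and CYP86A2 included.

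**Figure D4:**
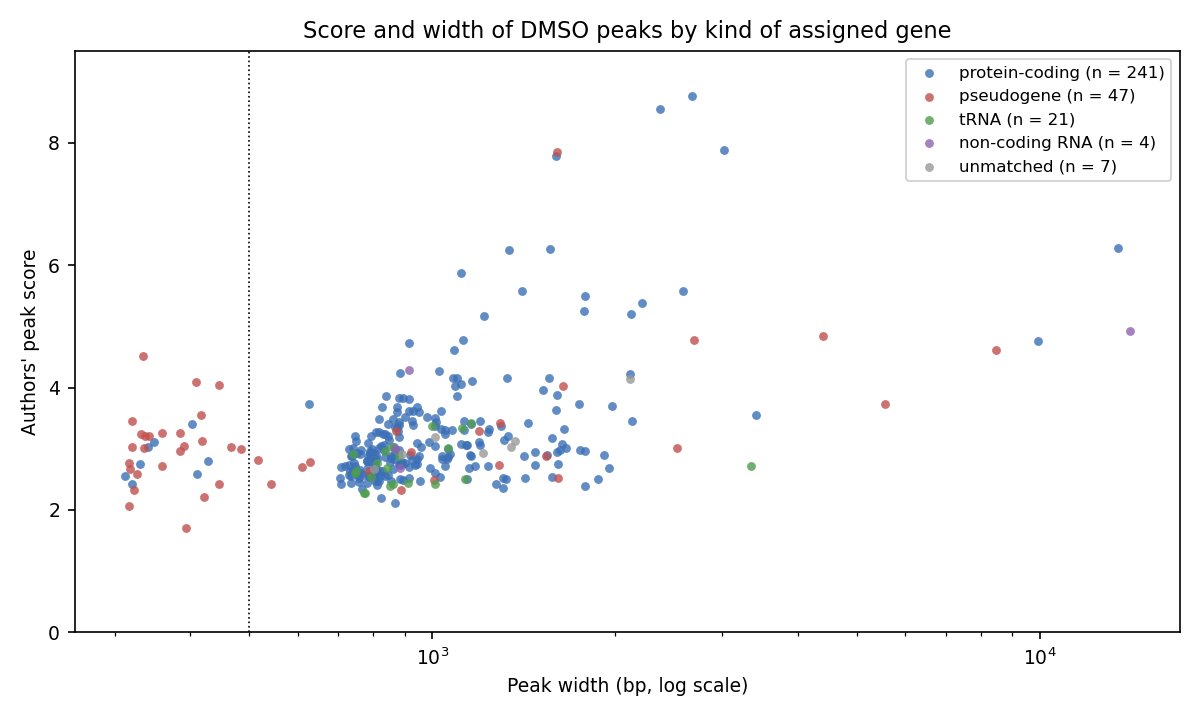
Authors' score (vertical axis, no unit) against peak width (horizontal axis, bp, log scale) for the 320 DMSO peaks, with 1 point per peak coloured by the kind of gene assigned and a dotted line at 500 bp. Pseudogene peaks make up 26 of the 34 points left of the line, and tRNA peaks stay at 3.42 or below.

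The widest peak, of 14031 bp, was assigned to the non-coding RNA gene AT3G41761 on chromosome 3 with a score of 4.92. Another of 9926 bp lay at the start of chromosome 2, from position 800, and was assigned to AT2G01008 with a score of 4.76. Each has 2 ribosomal RNA genes within 8 genes of it in the gene order. The peak of the pseudogene AT3G60930 was 8471 bp wide with a score of 4.61. Ribosomal genes exist in many copies, and the part of copy number in these values was not tested.

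The second widest peak, 13432 bp on chromosome 4 from 474962 to 488393, was assigned to ADNT1 with a score of 6.29. In the gene order 1 gene separates ADNT1 from GBF2. The tunicamycin list assigns to GBF2 a peak of 6193 bp, and 6038 bp of it lie under this DMSO peak. The transgene carries the GBF2 promoter and gene as well, so chromatin of the native locus and of the transgene cannot be told apart here, and the ADNT1 assignment follows the authors' rule of 1 gene per peak.

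Most sites of unstressed seedlings were also called after tunicamycin, and the strong ones nearly always. Of the 320 peaks, 272 overlapped a tunicamycin peak by at least 1 bp (85%, 80.7 to 88.5%), including 29 of the 30 strongest. The peaks of all 33 bound list members overlapped too, but the lists were chosen with results of these data known. Their full overlap is therefore no independent evidence. In 10 groups of 32 peaks ordered by score, the number that overlapped was 31 in the strongest and 32 in the next, but 18 in the weakest. The fall was not even: group 5 had 25 and group 6 had 32. Protein-coding peaks overlapped in 90.9% of cases, pseudogene peaks in 61.7% and tRNA peaks in 61.9%. Peaks under 500 bp overlapped in 44.1% of cases.

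**Figure D5:**
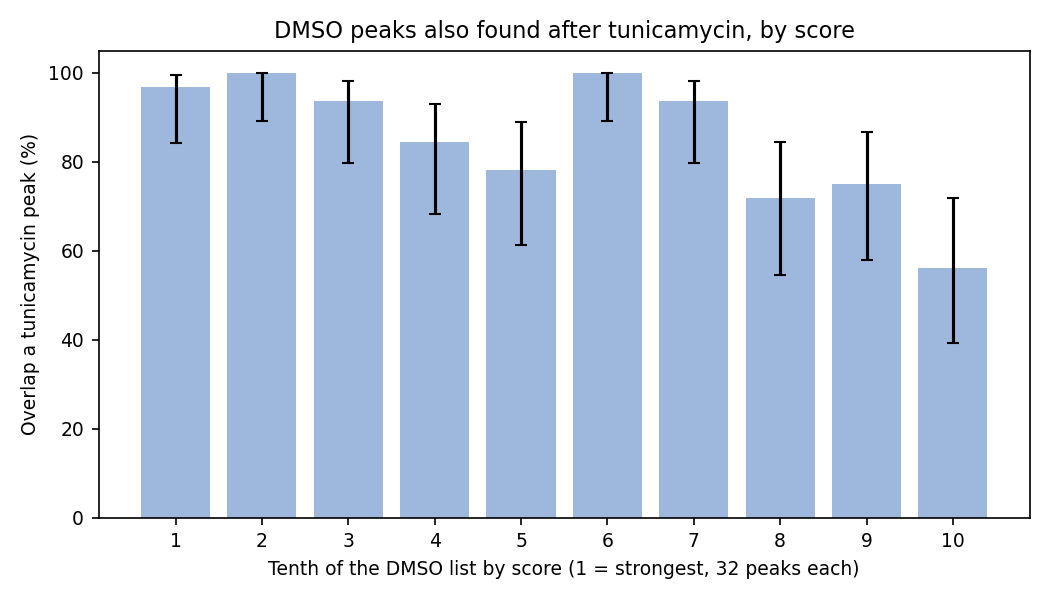
Share of DMSO peaks that overlap a tunicamycin peak by at least 1 bp (vertical axis, %) for 10 groups of 32 peaks ordered by DMSO score (horizontal axis, 1 strongest), with 95% Wilson intervals for counting error. The share is 96.9% in the strongest group and 56.3% in the weakest.

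The 48 peaks without a counterpart comprised 22 assigned to protein-coding genes, 18 to pseudogenes and 8 to tRNA genes. The strongest was a peak of 334 bp assigned to the pseudogene AT3G33076, with a score of 4.52. All 10 strongest of the 48 were in the distal intergenic class. They also included all 3 peaks of AT4G06710 (3.46, 3.26 and 3.21). The named protein-coding genes among the 48, picked after their values were seen, were BRI1 (2.97), the histone acetyltransferase gene HAG2 (2.83), the callose synthase gene GSL8 (2.71), the kinase gene APK2B (2.58), WES1, a GH3 enzyme that conjugates auxin (2.52), the nucleolar GTPase gene NSN1 (2.48) and the Rab GTPase gene RABA2D (2.46). A missing counterpart means only that no overlapping peak was listed, since without values per library the change at a site could not be tested.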

How the data were processed

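ChIP-seq libraries fell into 4 groups of 2 (8 in all), and the design text calls them biological replicates. Per the submitters' processing notes, the build was TAIR10 and the tools included MACS2 2.1.2, Bowtie 1.1.2, SAMtools 1.8, cutadapt 1.8.1 and FastQC 0.11.5. What each did, with which settings, how inputs were used and whether replicates were pooled is not given in the sources used here. Peak lists hold no values per library. Each peak has a score that the authors deposited, named signal value per the file headers, and whether it is a fold enrichment is not stated. The deposited width in bp equals end minus start plus 1, so coordinates are 1-based. Position class and gene are the authors'. Depth is unknown, which leaves the precision of a score unknown.

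Gene symbols, kinds, counts and gene order came from a RefSeq table of TAIR10.1, in which 285 of 292 genes matched. Its coordinates were not set against peaks. A gene was called bound when it was assigned any peak. The members and the 25 lists (366 symbols, 6 unmatched) were chosen with earlier results of these data known. Genes were named if they were list members or had one of the 30 strongest, the widest or the weakest peaks. Genes with several peaks, neighbours of named peaks and the strongest peaks without a tunicamycin counterpart were named too. Others were named after their values were seen, as marked. No search for the G-box was run and no sequence is shown, since no genome of the build was used here. Counts and overlaps were tested on simulated data. Alternatives covered the position class, the strongest 50%, gene kind, neighbouring peaks and the overlap rule. Scripts ran under Python 3.11.15 with numpy 2.4.6, pandas 2.3.3, matplotlib 3.10.9 and SciPy 1.17.1. An item withheld from the text is not reported here.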

Additional observations from a re-analysis of the deposited data

How the results depend on the processing

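The share of the 1 kb promoter class, 69.1%, became 75.6% with classes up to 2 kb, 79.1% up to 3 kb and 62.5% in the strongest 50%. It was 76.4% without pseudogene peaks within 50 kb of another, 77.3% without any pseudogene peak and 75.9% for protein-coding genes. An alternative chosen after seeing the data, 1 peak per site within 10 kb, gave 74.6%. The correlation of score and width, 0.408, was 0.513 within the promoter class and 0.366 without the 10 widest peaks. The overlap with tunicamycin peaks, 85%, was 74.7% with midpoints within 200 bp, 84.4% with 50% of the peak covered, 90.6% in the strongest 50% and 90.9% for protein-coding genes. Also chosen after seeing the data, it was 89.9% without peaks under 500 bp and 88.4% with 1 peak per site. Bound list members, 33, ranged from 23 in the strongest 50% to 39 when a bound neighbour was counted. The median scores of the promoter and distal classes for protein-coding genes were 2.92 and 2.91.

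No paired analysis was possible because the lists hold no values per library, and for the same reason no replicate was left out. The planned G-box search and its alternatives were not run. Depth limits every statement on a gene without a peak: binding there was not detectable in this list, which does not show that it is absent.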
